A study of Homo sapiens with 10 samples.

Results

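The genes examined here were 8 regulators of the sterol-sensing SREBP pathway and of cholesterol transport, *SREBF1*, *SREBF2*, *SCAP*, *INSIG1*, *INSIG2*, *STARD4*, *MYLIP* and *ABCA1*, out of 20535 genes listed in each library. They were taken by symbol from a list chosen by their function and by their TPM in HS2-targeted against control cells, so those differences are given as a description, and a call made on them supports nothing. *MYLIP* and *ABCA1* were included as targets of the liver X receptors (LXR), the opposite arm of the pathway. Of the 8 genes, only *MYLIP* and *ABCA1* bear on the uptake or export of cholesterol at the cell surface, so the genes are called SREBP regulators and sterol transport genes below.

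RNA-seq was performed on 10 libraries of K562 cells, a human erythroleukemia line that expresses embryonic and fetal globins, in 5 groups of 2 replicates. The doxycycline-inducible dCas9 constructs were induced for 72 h, and transduced cells were sorted for the zsGreen1 marker. The control group received a nontargeting sgRNA (sgGal4), and the other groups received a combination of 4 sgRNAs to HS2, an enhancer in the β-globin locus control region. The labels name no effector for sgGal4, so the effector and the targeting of HS2 cannot be told apart in a comparison with it. The HS2 groups carried dCas9-KRAB (K), dCas9-LSD1 (L), dCas9-LSD1 with MCP-KRAB (enCRISPRi-LK, LK) or dCas9-KRAB with MCP-LSD1 (enCRISPRi-KL, KL), where KRAB is a repressor domain, LSD1 is a histone demethylase and MCP binds the MS2 hairpins of the sgRNA. The paper describes the replicates of this RNA-seq as experiments, but does not state whether they came from separate cultures. The p-values below thus measure the spread between these libraries, and how much of it is technical was not tested. On GRCh37, GENCODE places *SREBF1* at chr17:17713713-17740316, *SREBF2* at chr22:42229109-42303310, *SCAP* at chr3:47455171-47518616 and *INSIG1* at chr7:155089486-155101945. It places *INSIG2* at chr2:118846028-118868573, *STARD4* at chr5:110831731-110848288, *MYLIP* at chr6:16129317-16148479 and *ABCA1* at chr9:107543287-107690436, so none of the 8 lies on chromosome 11, which holds the β-globin locus.

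SREBPs are transcription factors that are made as membrane proteins of the endoplasmic reticulum. SCAP escorts them to the Golgi, where proteases release the active factor, and INSIG proteins hold SCAP back when sterols are plentiful. Active SREBP-2, from *SREBF2*, is best known for driving cholesterol synthesis and LDL uptake genes, and SREBP-1, from *SREBF1*, for fatty acid synthesis genes, whereas LXRs respond to oxysterols and drive sterol efflux. *INSIG1*, *SREBF2* and *STARD4* are themselves known SREBP targets.

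The sequences just before the start sites of *SREBF2*, *INSIG1*, *STARD4* and *SREBF1* are shown. The first 3 of these genes were lower in every HS2-targeted library than in both sgGal4 libraries, and *SREBF1*, the partner of *SREBF2*, was not. *INSIG2* was lower in the same way but is not printed, and its 2 windows held none of the letters searched for. The printed sequences are RefSeq promoter windows placed on GRCh37 by an exact match. Each is cut where the annotated gene begins and written 5′ to 3′ on the strand of the gene. Capitals mark the letters TCACNCCAC, a form of the sterol regulatory element, and CCAAT, the box bound by NF-Y, on either strand.
SREBF2 (chr22:42228859-42229108, plus strand): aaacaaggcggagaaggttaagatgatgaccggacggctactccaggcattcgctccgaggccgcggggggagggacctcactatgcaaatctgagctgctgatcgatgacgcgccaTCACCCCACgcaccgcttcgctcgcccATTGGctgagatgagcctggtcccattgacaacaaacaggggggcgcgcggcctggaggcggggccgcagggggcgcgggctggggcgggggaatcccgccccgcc
INSIG1 (chr7:155089338-155089485, plus strand): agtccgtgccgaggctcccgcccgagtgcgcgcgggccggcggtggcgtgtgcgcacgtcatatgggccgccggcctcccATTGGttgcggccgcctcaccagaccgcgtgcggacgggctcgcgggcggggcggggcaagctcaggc
STARD4 (chr5:110848289-110848483, minus strand): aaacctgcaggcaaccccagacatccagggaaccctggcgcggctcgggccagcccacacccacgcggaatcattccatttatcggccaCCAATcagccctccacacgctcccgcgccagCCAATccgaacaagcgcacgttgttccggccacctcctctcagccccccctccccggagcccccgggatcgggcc
SREBF1 (chr17:17740317-17740550, minus strand): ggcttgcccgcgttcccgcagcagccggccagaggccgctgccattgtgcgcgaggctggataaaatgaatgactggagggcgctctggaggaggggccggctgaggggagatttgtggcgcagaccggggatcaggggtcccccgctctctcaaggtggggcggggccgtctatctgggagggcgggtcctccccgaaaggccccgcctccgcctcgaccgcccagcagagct

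All 8 genes matched a RefSeq window of 300 bases, from 250 before to 50 after the start. The TCACNCCAC letters were found in 1.13% of 35116 such windows and, among the 8 genes, in *SREBF2* alone, where they begin 133 bases before the start with the CCAAT box 106 bases before it. CCAAT on either strand was more common, at 34.6% of windows, and was found for *SREBF2*, *INSIG1*, *STARD4* (2 boxes) and *MYLIP* (2 boxes). CACGTG, the E-box form, was in 7.26% of windows and in those of *SCAP*, *INSIG1* and *ABCA1*. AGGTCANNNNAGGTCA, an exact form of the LXR direct repeat, was in 0.0199% of windows and in none of the 8 genes. These matches describe the letters of a short window only, and an element with other letters would be missed.

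Levels are given as TPM, a share of all transcripts that is scaled for transcript length and so can be set side by side between genes. Gene sums within a library ranged from 790470 to 844414 TPM. Mitochondrially encoded genes held 39.9 to 53.6% of this sum, with 53.6% and 43.7% in the sgGal4 libraries. All 10 K562 erythroid markers had a mean of 1 TPM or more. The embryonic globin gene *HBE1* was at 1376 and 1620 TPM in sgGal4 and at 361 to 1019 TPM in the HS2-targeted libraries. Other erythroid markers did not all go this way. The fetal globin gene *HBG1* was at 121%, 95.4%, 62.2% and 45.8% of the sgGal4 mean in K, L, LK and KL. *KLF1*, *EPOR* and *ALAS2* were higher in all 8 HS2-targeted libraries than in both sgGal4 libraries. *KDM1A*, which encodes LSD1, was higher only in the libraries labelled L (105 and 84.2 TPM, against 25.2 to 33.5 TPM in all others). *ZNF10*, the source of the KRAB domain, was at 128 and 136 TPM in those labelled L, 36.8 and 31.5 TPM in LK, 365 and 360 TPM in KL, but 1.18 and 3.80 TPM in K. Because these levels do not follow the named effectors in every group, K, L, LK and KL below mean the libraries so labelled. The words effector, dual (LK and KL) and single (K and L) are likewise used by label only.

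*INSIG1*, the anchor that retains SCAP in the endoplasmic reticulum when sterols are plentiful, showed the largest difference from sgGal4 of the 8 genes. It was at 38.1 and 64.5 TPM in the sgGal4 libraries. It was at 5.17 and 5.68 TPM in K, 7.97 and 16.4 TPM in L, 13.7 and 4.96 TPM in LK, and 6.88 and 8.94 TPM in KL. All 8 HS2-targeted libraries were thus below both sgGal4 libraries, as were 5.29% of the 10127 genes tested, and the lower sgGal4 library was 2.33 times the highest HS2-targeted one. The group means were 10.6% (K), 23.7% (L), 18.2% (LK) and 15.4% (KL) of the sgGal4 mean. On the log2(TPM + 1) scale the differences were -2.98 in K, -2.02 in L, -2.43 in LK and -2.51 in KL, each with a standard error (SE) of 0.44. The replicates of L and LK were far apart, with an SD of 5.93 TPM around 12.2 TPM in L and of 6.21 TPM around 9.35 TPM in LK (n = 2 each).

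*INSIG2*, its paralog that is not a classical SREBP target, was expressed at a much lower level. It was at 3.83 and 7.13 TPM in sgGal4, 1.43 and 0.96 TPM in K, 1.76 and 1.61 TPM in L, 3.21 and 0.48 TPM in LK, and 3.66 and 1.91 TPM in KL. Every HS2-targeted library was below both sgGal4 libraries, but the highest, KL replicate 1, was close to the lower sgGal4 library. The differences of -1.52 (K), -1.22 (L), -1.33 (LK) and -0.77 (KL) had an SE of 0.52. That of LK was -2.08 without LK replicate 1 and -0.57 without LK replicate 2, and that of KL was -0.39 without sgGal4 replicate 2 and -0.43 without KL replicate 2. The ratio of *INSIG1* to *INSIG2* in TPM was 9.94 and 9.04 in sgGal4 and ranged from 1.88 to 10.3 in the HS2-targeted libraries, with a median of 4.60. These ranges overlapped, since L replicate 2 and LK replicate 2 lay above both sgGal4 libraries.

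The genes for the factors themselves differed from each other. *SREBF2* was at 32.4 and 42.6 TPM in sgGal4. It was at 19.8 and 14.8 TPM in K, 24.3 and 24.3 TPM in L, 14.7 and 20.9 TPM in LK, and 19.8 and 14.8 TPM in KL. All 8 HS2-targeted libraries were below both sgGal4 libraries, and L was the group nearest to sgGal4 at 64.7% of its mean, against 46.0% in K, 47.4% in LK and 46.1% in KL. The log2 differences were -1.08 (K), -0.60 (L), -1.04 (LK) and -1.08 (KL), with an SE of 0.28.

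*SREBF1* was at 46.5 and 67.5 TPM in sgGal4, 60.4 and 54.1 TPM in K, 40.7 and 40.7 TPM in L, 49.7 and 54.0 TPM in LK, and 43.4 and 31.6 TPM in KL. Both libraries of K and of LK lay between the sgGal4 libraries, whereas both of L and of KL lay below them. The log2 differences were 0.03, -0.45, -0.11 and -0.59 in K, L, LK and KL (SE 0.23), and that of K turned negative, down to -0.10, under each of the 3 other scalings. Without sgGal4 replicate 1 these differences were -0.24, -0.72, -0.38 and -0.85, and without sgGal4 replicate 2 they were 0.29, -0.19, 0.15 and -0.32, so only those of L and KL kept their sign. That of K was also -0.05 without K replicate 1, and that of KL was -0.36 without KL replicate 2. The ratio of *SREBF1* to *SREBF2* in TPM was 1.43 and 1.59 in sgGal4 and 1.68 to 3.65 in the HS2-targeted libraries, with no overlap. It was highest in K (3.06 and 3.65) and LK (3.39 and 2.58), intermediate in KL (2.18 and 2.14) and lowest in L (1.68 in both). The separation of this ratio from sgGal4 follows the lower *SREBF2*, a difference known when the genes were chosen.

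*SCAP*, the escort that senses sterols, overlapped between the groups. It was at 22.2 and 38.7 TPM in sgGal4, 22.7 and 31.2 TPM in K, 22.6 and 19.4 TPM in L, 25.7 and 25.8 TPM in LK, and 31.7 and 29.2 TPM in KL. Its log2 differences lay between -0.47 (L) and 0.05 (KL) with an SE of 0.28, and the KL value became -0.05 with mitochondrial genes removed. Without sgGal4 replicate 1 the 4 differences were -0.52, -0.85, -0.57 and -0.34 in K, L, LK and KL, and without sgGal4 replicate 2 they were 0.25, -0.08, 0.21 and 0.44, so no direction is given. That of K was also 0.09 without K replicate 1. The ratio of *SCAP* to the sum of both *INSIG* genes in TPM was 0.529 and 0.540 in sgGal4 and 1.08 to 4.74 in the HS2-targeted libraries, with a median of 2.85. As *SCAP* itself overlapped, the separation of this ratio follows the lower *INSIG* levels, which were known when the genes were chosen. The ratio counts transcripts and not proteins.

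**Figure D1:**
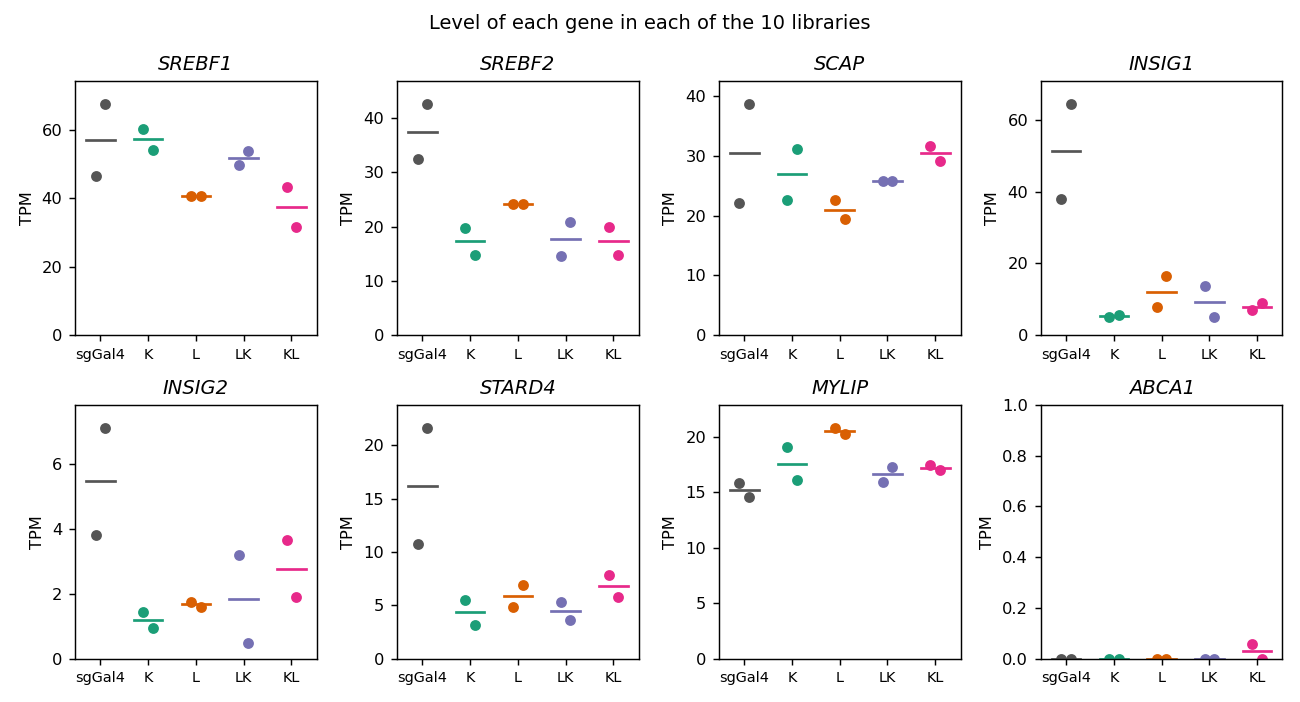
Level in TPM of each of the 8 genes (vertical axes, each from 0) in each library, by group; points are the 2 replicates and bars their mean. *INSIG1*, *INSIG2*, *SREBF2* and *STARD4* lay lower in all 8 HS2-targeted libraries than in both sgGal4 libraries, *MYLIP* slightly higher, and *ABCA1* was listed at 0 in 9 of 10 libraries.

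*STARD4*, which encodes a soluble carrier of cholesterol between membranes, was the other transport gene of the SREBP arm. It was at 10.8 and 21.6 TPM in sgGal4, 5.55 and 3.21 TPM in K, 4.87 and 6.90 TPM in L, 5.35 and 3.61 TPM in LK, and 7.81 and 5.77 TPM in KL. All 8 HS2-targeted libraries were below both sgGal4 libraries. The log2 differences were -1.64 (K), -1.26 (L), -1.59 (LK) and -1.08 (KL), with an SE of 0.41. Without sgGal4 replicate 2 they were -0.79 in L and -0.61 in KL.

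The LXR arm was represented by *MYLIP*, a ubiquitin ligase that lowers lipoprotein uptake, and by *ABCA1*, the pump that exports cholesterol to apolipoproteins. *MYLIP* was at 15.9 and 14.6 TPM in sgGal4, 19.0 and 16.1 TPM in K, 20.8 and 20.2 TPM in L, 15.9 and 17.3 TPM in LK, and 17.4 and 17.0 TPM in KL. All 8 HS2-targeted libraries were above both sgGal4 libraries, as for 6.53% of all genes tested, but LK replicate 1, at 15.93 TPM, exceeded sgGal4 replicate 1, at 15.85 TPM, by a margin of the second decimal. The log2 differences were 0.19 (K), 0.41 (L), 0.12 (LK) and 0.17 (KL) with an SE of 0.25, and with mitochondrial genes removed that of LK fell to -0.0020. That of K was 0.08 without K replicate 1, and that of LK was 0.06 without sgGal4 replicate 2 or LK replicate 2. *ABCA1* was listed at 0 in 9 libraries and at 0.06 TPM in KL replicate 1, so it was not tested and shows no direction. A value of 0 may be a failed estimate here, since *PGK1* and *UBA1*, genes that every cell uses, were listed at 0 in all 10 libraries. *ABCA1*, unlike them, had a value above 0, so whether its 0 values are of that kind is not known. The same caution holds for other genes listed at 0 in all libraries.

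A limma fit with Benjamini-Hochberg adjustment was made over the 10127 genes whose average over the libraries reached 1 TPM, which took in 7 of the 8 genes. *INSIG1* was the only one past an adjusted p of 0.05, as lower, in each comparison with sgGal4, where 0.741% of all genes tested were called lower in K, 0.563% in L, 0.829% in LK and 0.731% in KL. As the genes were chosen with these comparisons known, nothing is read from this count. The call ended in all 4 comparisons with no filter on low values or without a trend in the variance, and in each of them without some single libraries.

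The median log2 difference of the 7 genes was -1.08 in K, -0.60 in L, -1.04 in LK and -0.77 in KL, beside medians of 0.057, 0.0050, 0.028 and 0.050 over all genes tested. The 4 comparisons share the same sgGal4 libraries, so their likeness is in part built in. The sgGal4 libraries also differed, since replicate 2 was above replicate 1 for every tested gene but *MYLIP*, by 1.31 (*SREBF2*) to 2.01 times (*STARD4*). The median of that ratio over all genes was 1.23, and with mitochondrial genes removed the range became 1.12 to 1.72. Some markers of other cell types moved with the groups as well. Of 6 T cell markers 2 reached a mean of 1 TPM and *CD3E*, *LCK* and *CD2* were listed at 0, and their sum was 27.5 and 35.1 TPM in sgGal4 against 2.68 to 29.1 TPM in the HS2-targeted libraries. *CD3D* made up most of that sum (26.1 and 33.6 against 1.65 to 21.3 TPM), whereas *RAG1* was higher in all 8 HS2-targeted libraries than in both sgGal4 libraries. Of 4 monocyte and macrophage markers 2 reached it, *CSF1R* was listed at 0, and their sum was 35.0 and 42.9 TPM against 13.5 to 33.4 TPM. *CD68* made up most of it (34.2 and 40.8 against 12.6 to 25.4 TPM), whereas *LYZ* was at 0.79 and 2.11 against 0.97 to 7.94 TPM. Of 4 epithelial markers 3 reached it, with sums of 283 and 376 TPM against 201 to 315 TPM. The part of these markers and of the mitochondrial share in the differences was not tested. In bulk RNA, fewer cells that express a gene and less RNA per cell cannot be told apart.

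**Figure D2:**
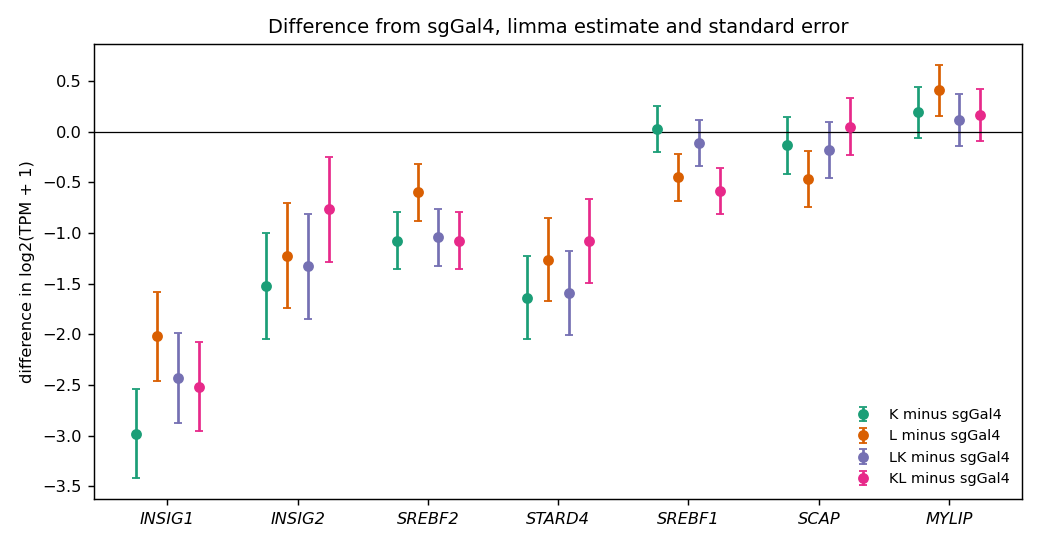
Difference in log2(TPM + 1) between each HS2-targeted group and sgGal4 (vertical axis) for the 7 genes tested (horizontal axis); points are limma estimates and bars the SE. *INSIG1* reached -2.98 to -2.02, whereas *SREBF1*, *SCAP* and *MYLIP* stayed between -0.59 and 0.41.

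The order of the levels also changed between control and HS2-targeted cells. In sgGal4, *SREBF1* (57.0 ± 14.9 TPM, SD, n = 2) and *INSIG1* (51.3 ± 18.7) led, followed by *SREBF2* (37.5 ± 7.18), *SCAP* (30.4 ± 11.7), *STARD4* (16.2 ± 7.69), *MYLIP* (15.2 ± 0.884) and *INSIG2* (5.48 ± 2.33). Neighbours in that order overlapped between the libraries except for *SCAP* and *STARD4* and for *MYLIP* and *INSIG2*. Over the 4 HS2-targeted groups *SREBF1* (37.5 to 57.2 TPM) stayed first, and *INSIG1* (5.43 to 12.2 TPM) stood below *MYLIP* (16.6 to 20.5 TPM) in each group. *INSIG2* (1.20 to 2.79 TPM) was the lowest of the 7 genes in each group.

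The comparisons between effectors gave the sgGal4 libraries no weight and were not used to choose the genes, so they were tested. The sgGal4 libraries were still in the same fit and entered its estimate of the spread. None of the 7 genes passed an adjusted p of 0.05 by limma between the dual and the single effectors (LK and KL against K and L), where 0.0889% of all genes were called, between LK and KL (0.385%) or between K and L (0.0395%). At an unadjusted p under 0.05 the counts were 0, 0 and 1 of the 7 genes. Counts at this threshold, here and below, have no share of all genes beside them, so nothing is read from them. The 1 gene was *INSIG1*, which was lower in K than in L by 0.96 on the log2 scale (95% confidence interval -1.90 to -0.01, adjusted p = 0.584 by limma). Both K libraries (5.17 and 5.68 TPM) were below both L libraries (7.97 and 16.4 TPM). No share of all genes is given for such a separation, so nothing is read from it.

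The intervals were wide for the genes with the most variable replicates. Between dual and single effectors the log2 difference of *INSIG1* was 0.03 (95% confidence interval -0.64 to 0.69) and that of *INSIG2* was 0.33 (-0.46 to 1.11). The narrowest interval in that comparison was that of *SREBF1*, at -0.14 (-0.49 to 0.21), and the lowest adjusted p was that of *SCAP*, at 0.849 by limma for a difference of 0.24. *SREBF1* was higher in LK than in KL by 0.47 (-0.02 to 0.97, limma adjusted p = 0.531) and higher in K than in L by 0.48 (-0.01 to 0.97, limma adjusted p = 0.615), without passing the threshold. In both pairs its libraries did not overlap, but no share of all genes is given for such a separation of 2 libraries from 2, so nothing is read from it. *SREBF2* differed by -0.48 (-1.08 to 0.12) between K and L and *MYLIP* by -0.22 (-0.76 to 0.33). With 2 libraries per group, differences of up to the ends of these intervals were not excluded. The missed threshold does not show that the labelled groups were alike.

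**Figure D3:**
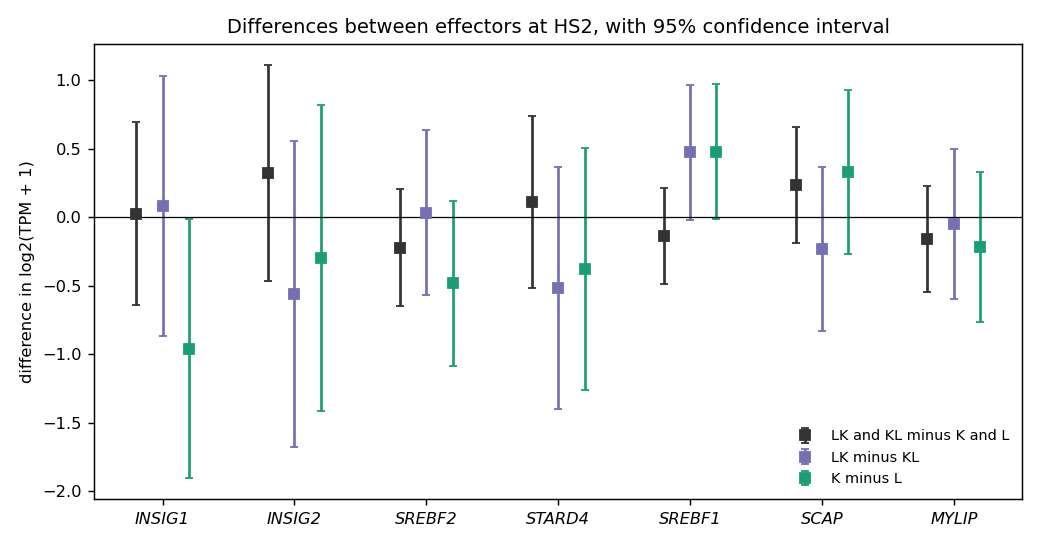
Difference in log2(TPM + 1) between effectors (vertical axis) for the 7 genes tested (horizontal axis); squares are limma estimates and bars the 95% confidence interval. All intervals include 0 except that of *INSIG1* in K minus L, -1.90 to -0.01, which did not pass adjustment.

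The other genes of the pathway were counted in lists set by function, which were also chosen with earlier results of these data known. Their differences from sgGal4 are thus a description, and calls made on them support nothing. Of 19 cholesterol synthesis enzymes tested, 6 were called lower in K, 6 in L, 5 in LK and 7 in KL by limma, and none higher, with list medians of -1.07, -0.97, -1.08 and -1.08 on the log2 scale. Of all genes tested, 0.741%, 0.563%, 0.829% and 0.731% were called lower in these comparisons. *FDFT1*, *HMGCS1*, *IDI1*, *MSMO1* and *SQLE* were called lower in all 4 comparisons. Left-out libraries lowered the counts in K to 3 (without sgGal4 replicate 1), 2 (K replicate 1) and 0 (K replicate 2). The counts in L fell to 3 and 2 (without sgGal4 replicates 1 and 2) and to 1 and 2 (without L replicates 1 and 2), and those in LK to 2 and 3 (without sgGal4 replicates 1 and 2) and to 2 (without either LK replicate). In L the count was at most 5 without any 1 of the 10 libraries, those of the other groups included. *HMGCS1*, an early enzyme of the mevalonate pathway, was at 66.2 and 105 TPM in sgGal4 and had a lowest, median and highest level of 14.6, 21.9 and 32.0 TPM in the HS2-targeted libraries. *SQLE*, the squalene epoxidase, was at 73.2 and 75.1 TPM against 17.7, 27.8 and 33.4 TPM, and *IDI1*, the isopentenyl diphosphate isomerase, at 86.3 and 102 TPM against 23.1, 30.5 and 41.0 TPM. In all, 14 of the 19 enzymes lay below both sgGal4 libraries in all 8 HS2-targeted libraries, against 5.29% of all genes tested.

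Of 12 fatty acid synthesis targets of SREBP-1 tested, 4, 3, 4 and 3 were called lower in K, L, LK and KL and none higher, beside the same 0.741%, 0.563%, 0.829% and 0.731% of all genes, with medians of -0.72, -0.64, -0.69 and -0.84. The stearoyl-CoA desaturase gene *SCD* and the desaturase gene *FADS1* were called in all 4. Without sgGal4 replicate 1 the counts were 2 in K, 1 in L and 2 in LK, and without sgGal4 replicate 2 the count was 2 in LK. Without 1 of their own replicates, 1 and 2 in turn, they were 2 and 1 in K, 1 and 0 in L, and 0 and 1 in LK, and without KL replicate 2 the count was 1 in KL. In K and in LK the count was at most 3 without any 1 of the 10 libraries, those of the other groups included. *SCD* was at 194 and 229 TPM in sgGal4 and at 84.2 to 105 TPM in the HS2-targeted libraries. *FADS1* was at 272 and 238 TPM against 85.0 to 142 TPM. *FASN*, the fatty acid synthase, was at 210 and 230 TPM against 91.3 to 144 TPM and was called in 3 of 4 comparisons. *FADS2*, a related desaturase, was at 16.7 and 13.6 TPM against 1.48 to 8.64 TPM and was called in 2 of 4.

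Of 12 genes for SREBP processing and turnover that were tested, none was called in K, L or LK and 1 was called lower in KL. Of all genes tested, 0.741% were called lower in K, 0.563% in L, 0.829% in LK and 0.731% in KL. The KL call was lost without sgGal4 replicate 1 or KL replicate 2, with no filter, without a trend and with only the groups compared. List medians lay between -0.07 and 0.14. At an unadjusted p under 0.05 the counts were 1, 1, 0 and 3 in K, L, LK and KL by limma. The protease genes that cut SREBPs, *MBTPS1* (10.3 to 21.2 TPM over all libraries) and *MBTPS2* (3.94 to 8.72 TPM), overlapped between groups.

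Of 8 genes for cholesterol uptake and endosomal release that were tested, none was called by limma in any of the 4 comparisons. The shares of all genes called lower are those given above. At an unadjusted p under 0.05 the counts were 3, 3, 0 and 2. *NPC1*, which releases cholesterol from late endosomes, was lower in all 8 HS2-targeted libraries than in both sgGal4 libraries, at 21.1 and 24.3 TPM against 8.20 to 17.3 TPM, without a call.

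On the LXR side, 6 of 15 listed receptors and targets were tested, and 2 were called higher in each of the 4 comparisons, with medians of 0.47, 0.52, 0.31 and 0.38. Of all genes tested, 0.879% were called higher in K, 0.306% in L, 1.18% in LK and 0.632% in KL. Both are apolipoprotein genes and are named here after their values were seen. *APOC1* was at 169 and 214 TPM in sgGal4 and 444 to 682 TPM in the HS2-targeted libraries, with log2 differences of 1.28 to 1.82. *APOE* was at 49.1 and 64.0 TPM against 98.2 to 166 TPM, with log2 differences of 0.89 to 1.55. The count was 1 in K without K replicate 2, in KL without KL replicate 2, and in L without sgGal4 replicate 1, either L or either LK library. It was also 1 in all 4 comparisons without a trend, and in L with no filter and with only the groups compared. *APOE* and *APOC1* are neighbours on chromosome 19, 4853 bases apart, so they may not be independent members of the list. The genes for the receptors, *NR1H2* (log2 differences of 0.19 to 0.48) and *NR1H3* (0.13 to 0.25), were not called, and the efflux gene *ABCG1* was listed at 0 in all libraries. Of the 4 genes tested for sterol transport, esterification and oxysterol synthesis none was called by limma, and 0 had an unadjusted p under 0.05 in each comparison. *SOAT1*, the main enzyme of cholesterol esterification, ranged from 2.28 to 10.9 TPM with 3.47 and 7.18 TPM in sgGal4. None of the 61 genes tested over these lists was called by limma between dual and single effectors, LK and KL, or K and L. At an unadjusted p under 0.05 the counts were 3, 11 and 6 genes, again without the share of all genes, so nothing is read from them.

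**Figure D4:**
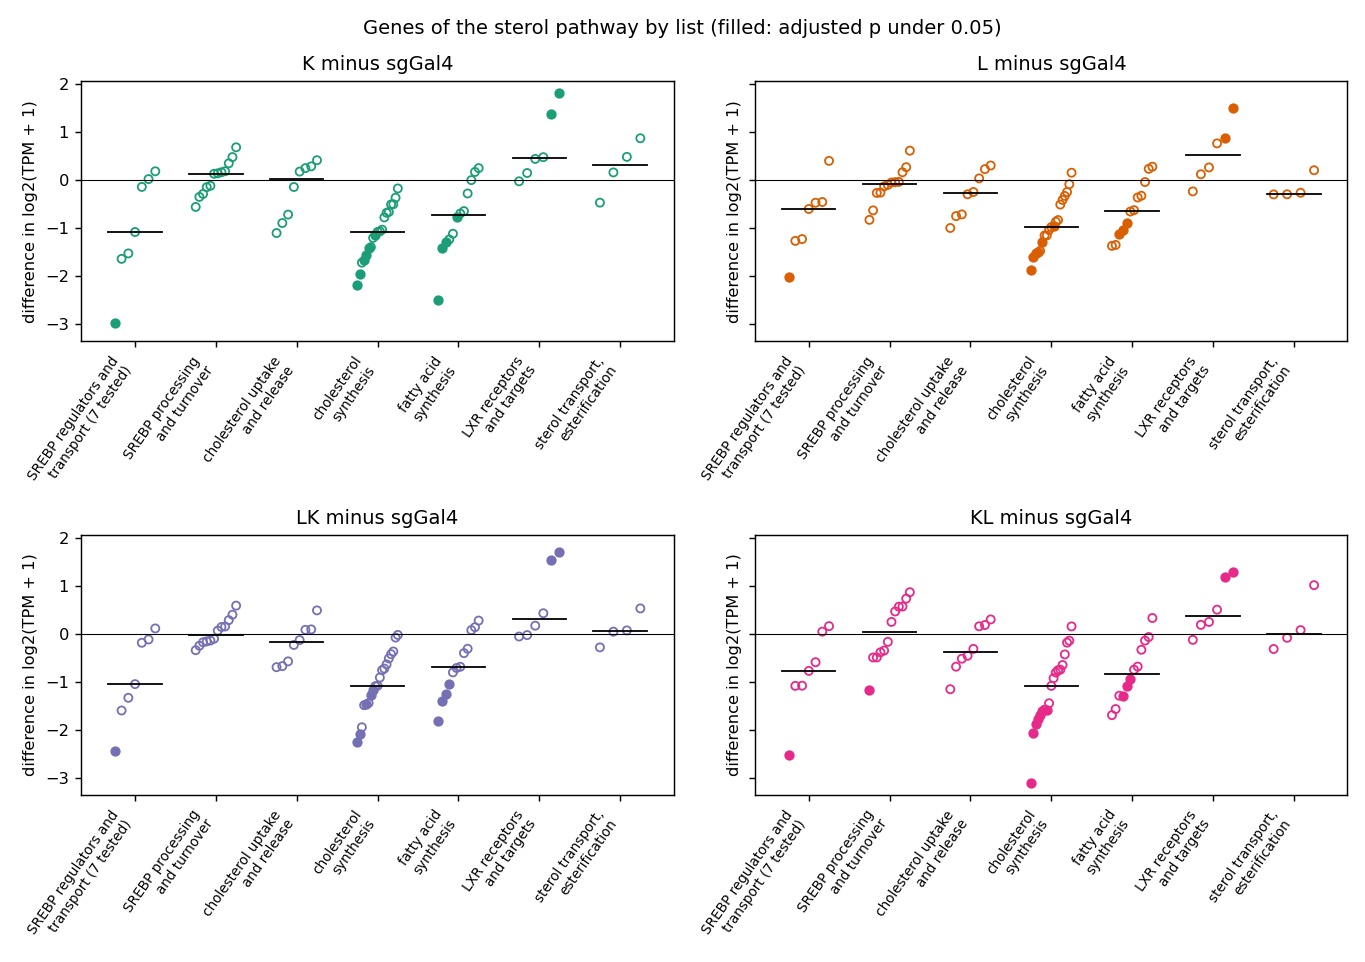
Difference in log2(TPM + 1) from sgGal4 (vertical axis) for every tested gene of the pathway lists (horizontal axis), 1 panel per HS2-targeted group; filled points passed an adjusted p of 0.05 by limma, open points did not, and black bars are list medians. The medians of both synthesis lists lay below 0 in each panel, at -1.08 to -0.97 for cholesterol and -0.84 to -0.64 for fatty acids.

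The genes whose levels most resembled *INSIG1*, *STARD4* and *MYLIP* over the 10 libraries were sought among 6110 genes averaging 10 TPM or more, by Pearson correlation of log2(TPM + 1). They were *WBP2* (r = 0.950), *ZBTB11* (0.923), *AHCYL1* (0.923), *CIR1* (0.919) and *DBI* (0.916) for *INSIG1*. For *STARD4* they were *C5orf51* (0.964), *SLC20A1* (0.954), *MSN* (0.949), *PPP2R5C* (0.948) and *ALDOC* (0.940). The 8 genes examined here were left out of this ranking, so they could not appear in it. None of these 10 genes was in the other pathway lists. Each but *DBI* was higher in both sgGal4 libraries than in all 8 HS2-targeted ones, as were 5.29% of all genes tested. As *INSIG1* and *STARD4* separate in this way, likeness to them favours it, so nothing is read from it. For *MYLIP* they were *SLC39A8* (0.886), *CRCP* (0.860), *HEXA* (0.845), *ZFP62* (0.845) and *NFATC2IP* (0.833). The libraries are the points of these correlations and share the separation of sgGal4 from the rest, so the values describe a shared order of libraries only. *ABCA1* could not be compared in this way.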

How the data were processed

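RNA-seq libraries of K562 cells were poly(A)-selected with a NEBNext directional kit per the labels, whereas the study's methods name the Ovation system, and which was used is not known here. The authors aligned reads to hg19 with STAR 2.5.2b, keeping reads with a single location, and estimated TPM per gene with RSEM, and these TPM values, with 2 decimals and 1 value per gene and library, are the deposited files used here. The annotation is not given in the sources used here. TPM carry no read counts, so the depth per library is unknown from these files, no counting interval can be given and the count-based test of the study was not repeated. Single-location counting can lower genes with near-identical copies, and a 0 may be a failed estimate.

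Groups were taken from the labels. Values were analysed as log2(TPM + 1), which understates changes of low genes, for the 10127 of 20535 genes that averaged 1 TPM or more. 1 limma fit (limma 3.58.1, R 4.3.3, mean-variance trend, tested on simulated data) of all 10 libraries gave differences, 95% intervals and Benjamini-Hochberg adjusted p-values over all genes tested, with a threshold of 0.05. The genes and the pathway lists were chosen with earlier results of these data known. The 8 genes are named in full. From the lists, the genes named are NPC1, HMGCS1, SQLE, IDI1, FASN, SCD, FADS1, FADS2, MBTPS1, MBTPS2, NR1H2, NR1H3, ABCG1 and SOAT1, with the 5 most alike genes for each of INSIG1, STARD4 and MYLIP and, as label checks, HBE1, KDM1A and ZNF10. Other genes of that rule are not reported here. Further genes named were chosen after their values were seen. Alternatives were a pseudocount of 0.1, no filter, a filter at 10 TPM, median-of-ratios size factors, quantile normalization, removal of mitochondrial genes, no trend, only the groups compared, a replicate block and leaving out each library. Promoter windows came from RefSeq (GRCh38.p14) and were placed on GRCh37 (GENCODE) by exact match. Python 3.11.15 and pandas 2.3.3 were used.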

Additional observations from a re-analysis of the deposited data

How the results depend on the processing

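The number of the 7 genes called against sgGal4, 1 in each of the 4 comparisons, changed with several settings, and the cause was not tested. It was 0 in all 4 with no filter on low values and 0 in all 4 without a trend. With median-of-ratios size factors it was 3 in K, 1 in L, 3 in LK and 2 in KL, with quantile normalization 3, 1, 2 and 2, with mitochondrial genes removed 3, 1, 3 and 2, and with a filter at 10 TPM 2, 1, 1 and 1. In L it was 0 with a pseudocount of 0.1, with only the groups compared and with the replicate block, whereas in K, LK and KL it stayed 1 under these. The block moved no other count by over 1.5 times. Leaving out each library gave 0 to 1 in each of the 4 comparisons, with 0 in K without K replicate 2, in LK without replicate 2 of sgGal4 or LK, in KL without sgGal4 replicate 2 or either KL library, and in L without any 1 library other than those of LK. Without a trend the 2 synthesis lists had no call in K, L and LK. Removing mitochondrial genes moved the median of all genes by up to 0.119 on the log2 scale. *INSIG1*, *INSIG2*, *SREBF2* and *STARD4* kept a negative difference from sgGal4 under every alternative that tested them. *INSIG2* and *STARD4* could not be tested with the filter at 10 TPM.

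Between effectors, no gene of the 7 was called under any alternative. With libraries left out, the log2 difference between dual and single effectors ranged from -0.30 to 0.35 for *INSIG1*, from -0.052 to 0.70 for *INSIG2* and from -0.047 to 0.27 for *STARD4*. That between LK and KL ranged from -0.21 to 0.27 for *SREBF2*, from -0.57 to 0.74 for *INSIG1*, from -1.32 to 0.19 for *INSIG2* and from -0.10 to 0.0076 for *MYLIP*, and under quantile normalization *MYLIP* reached 0.0080. The replicate numbers did not pair the samples: the deviations of same-numbered libraries correlated between -0.0213 and 0.0229 over 10 pairs of groups. With 2 libraries per group and TPM of unknown depth, low genes such as *INSIG2* carry the least precision.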
